A study of Mus musculus with 6 samples.

Results

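Starburst amacrine cells are the acetylcholine-releasing interneurons of the retina, and 5 genes of their cholinergic output were followed here in wild-type (WT) retinas and in retinas where Cyfip2 was conditionally knocked out (CKO). The 5 genes, Chat, Slc18a3, Slc5a7, Ache and Megf10, were found by their symbols among the 24346 genes of each deposited library, and each of them had a mean of at least 1 FPKM, a unit that scales fragment counts by transcript length and library size. The study sequenced messenger RNA from mouse retina in 6 libraries, 3 of genotype Cyfip2 CKO and 3 of genotype Cyfip2 WT, to ask what loss of Cyfip2 does to retinal transcripts. The Cyfip2 protein sits in the WAVE regulatory complex, through which cells build branched actin. The sources used here give neither age, strain, Cre driver nor floxed alleles, and do not say whether a library came from 1 animal. The p-values therefore speak of spread among these samples, and that spread may be technical.

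Acetylcholine is made in the cytoplasm of the cholinergic terminal from choline and acetyl-CoA, loaded into vesicles, released and then split outside the cell, and the choline is taken up again. Chat encodes choline acetyltransferase, the synthetic enzyme, and Slc18a3 the vesicular acetylcholine transporter. Slc5a7 encodes the high-affinity choline transporter that brings choline back, and Ache encodes acetylcholinesterase, which splits the transmitter. Megf10 encodes a transmembrane receptor with EGF-like repeats through which neighbouring starburst cells space themselves. Starburst cells release GABA as well as acetylcholine, and they supply the direction-selective ganglion cells of the retina. Chat, Slc18a3 and Slc5a7 are the narrowest markers of these cells in the retina, whereas Ache is also made by other inner retinal neurons and Megf10 by other retinal cells.

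The libraries were close to each other in scale. The number of genes at 1 FPKM or more was 13149 to 13242, and low values placed the sequencing depth at 1.04 to 1.31 times that of WT 1. Cyfip2, the targeted gene, was at 8.33, 10.2 and 11.2 FPKM in CKO 1 to 3 and at 35.5, 63.1 and 62.3 FPKM in WT 1 to 3, so every CKO library lay below every WT library. Its log2 fold change was -2.29 (SE 0.21, limma adjusted p = 0.02389); without CKO 1, CKO 2, CKO 3, WT 2 or WT 3 the adjusted p was 0.0663 to 0.1973, and without WT 1 it was 0.001597. Lens genes (5 crystallins, Mip and Bfsp1), a sign of lens tissue in the dissection, summed to 26.4 to 55.2 FPKM in CKO and 41.4 to 249 FPKM in WT, and pigment epithelium markers summed over 7 genes to at most 4.55 FPKM in any library. Muscle markers were low, with Musk at 0 to 0.0422 FPKM and a sum over 8 genes of at most 6.25 FPKM.

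None of the 5 cholinergic genes differed between CKO and WT past the threshold of limma, an adjusted p of 0.05 over 13215 tested genes. That threshold was passed by 2 genes higher in CKO (0.0151% of those tested) and by 1 gene lower in CKO, Cyfip2 (0.00757%). The 2 transporters, Slc18a3 and Slc5a7, had the largest differences, with CKO means at 71.9% and 81.1% of the WT means. Chat, Ache and Megf10 lay at 95.9%, 95.4% and 94.2%. All 5 log2 fold changes were below 0, with a median of -0.078, where 50.5% of all tested genes were below 0 and their median was -0.0016. Fold changes mostly below 0 were not particular to these genes: 7 of 8 cone markers (median -0.183), 7 of 9 bipolar cell markers (-0.109) and 7 of 8 rod markers (-0.081) were below 0 too. An unadjusted p under 0.05 in the lower direction was found for 2 of the 5, the transporters, against 4.36% of all tested genes, and none of the 5 had one in the higher direction, against 3.52%. The same 2 genes had CKO libraries that were all below the WT libraries, which held for 6.95% of tested genes, and none of the 5 had CKO libraries all above WT, which held for 6.96%.

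**Figure D1:**
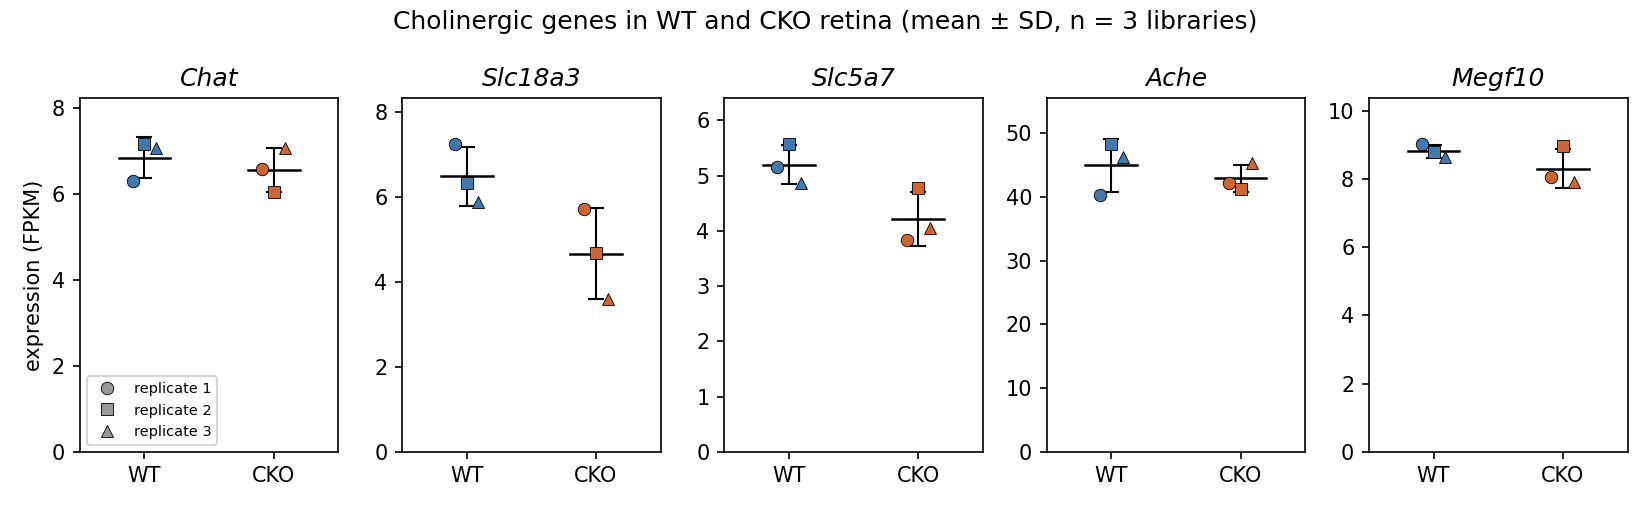
Expression in FPKM of Chat, Slc18a3, Slc5a7, Ache and Megf10 in WT (blue) and CKO (orange) retina, with 1 point per library, a line at the mean and bars of 1 SD (n = 3). The groups do not overlap for Slc18a3 and Slc5a7, while they overlap for Chat, Ache and Megf10.

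Chat, the enzyme that makes the transmitter, was at nearly the same level in both genotypes. It was listed at 6.58, 6.05 and 7.07 FPKM in CKO 1 to 3 and at 6.30, 7.16 and 7.08 FPKM in WT 1 to 3. The groups overlapped, with the lowest library a CKO and the next lowest a WT library. CKO averaged 6.57 ± 0.51 and WT 6.85 ± 0.475 FPKM (SD, n = 3 per genotype). The log2 fold change was -0.05 with a 95% confidence interval of -0.25 to 0.15 (limma adjusted p = 0.9261). In these bulk samples fewer cells of a type and less RNA per cell cannot be told apart, for Chat and for every gene that follows.

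Slc18a3, which fills vesicles with acetylcholine, had the largest difference of the 5 genes. It was listed at 5.73, 4.68 and 3.59 FPKM in CKO 1 to 3 and at 7.25, 6.34 and 5.88 FPKM in WT 1 to 3. The groups did not overlap, although the highest CKO library came close to the lowest WT library, and CKO 3 was the lowest of the 6 at 55.3% of the WT mean. CKO averaged 4.67 ± 1.07 and WT 6.49 ± 0.696 FPKM (SD, n = 3 per genotype). The log2 fold change was -0.42 with an SE of 0.15 (95% confidence interval -0.75 to -0.08), with an unadjusted p of 0.02168 and a limma adjusted p of 0.5717. Without CKO 3 the log2 fold change was -0.27, the unadjusted p 0.0642 and the adjusted p 0.7134; over all alternatives the adjusted p ran from 0.3584 to 0.835.

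Slc5a7, which returns choline to the terminal, lay lower in CKO by a smaller amount. It was listed at 3.84, 4.77 and 4.05 FPKM in CKO 1 to 3 and at 5.15, 5.57 and 4.87 FPKM in WT 1 to 3. Here too no CKO library reached the lowest WT library, and the gap between CKO 2 and WT 3 was narrow. CKO averaged 4.22 ± 0.488 and WT 5.20 ± 0.35 FPKM (SD, n = 3 per genotype). The log2 fold change was -0.25 with an SE of 0.10 (95% confidence interval -0.48 to -0.02), with an unadjusted p of 0.03658 and a limma adjusted p of 0.6007. The libraries at the extremes were not those of Slc18a3: the lowest Slc5a7 value was in CKO 1, which held the highest Slc18a3 value of its group.

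Ache, which ends the signal, was the most abundant of the 5. It was listed at 42.2, 41.2 and 45.2 FPKM in CKO 1 to 3 and at 40.2, 48.2 and 46.3 FPKM in WT 1 to 3. The lowest and the highest library were both WT, and the CKO values lay between them. CKO averaged 42.9 ± 2.11 and WT 44.9 ± 4.18 FPKM (SD, n = 3 per genotype), a log2 fold change of -0.06 (95% confidence interval -0.23 to 0.11, limma adjusted p = 0.8825). Without WT 1 the log2 fold change was -0.14 with an unadjusted p of 0.0535.

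Megf10, the spacing receptor, differed little. It was listed at 8.04, 8.96 and 7.91 FPKM in CKO 1 to 3 and at 9.02, 8.78 and 8.63 FPKM in WT 1 to 3. CKO 2 lay inside the WT range and the other CKO libraries below it. CKO averaged 8.30 ± 0.57 and WT 8.81 ± 0.196 FPKM (SD, n = 3 per genotype), a log2 fold change of -0.08 (95% confidence interval -0.25 to 0.09, limma adjusted p = 0.8372). Megf10 lies on chromosome 18 from 57133090 to 57297467 on the plus strand of GRCm38, with 25 exons in its first listed transcript.

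FPKM is scaled by transcript length, so levels can be set side by side between genes. Ache was at 43.9 FPKM over the 6 libraries, above 85.9% of tested genes. Megf10 followed at 8.56 FPKM, and its lowest library was above the highest Chat and Slc18a3 libraries. Chat at 6.71, Slc18a3 at 5.58 and Slc5a7 at 4.71 FPKM were of lower rank, above 30.6%, 26.2% and 22.5% of tested genes. In WT the ranges of Chat (6.30 to 7.16 FPKM) and Slc18a3 (5.88 to 7.25 FPKM) overlapped, and both lay above Slc5a7 (4.87 to 5.57 FPKM). In CKO the ranges of Slc18a3 (3.59 to 5.73 FPKM) and Slc5a7 (3.84 to 4.77 FPKM) overlapped, and both lay below Chat (6.05 to 7.07 FPKM). Slc18a3 was thus the lowest of the 5 genes in CKO 2 and CKO 3 and in no WT library.

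Chat and Slc18a3 form a single cholinergic locus, with one gene nested inside the other. By GENCODE M21 on GRCm38, Chat runs from 32408203 to 32465989 on the minus strand of chromosome 14. Slc18a3 is a single exon of 2413 bases from 32462438 to 32464850 on the same strand, inside the first intron of the transcript Chat-201, and it shares no base with any annotated Chat exon. Because both genes are read from the same strand, the strand of a fragment does not tell intronic Chat RNA from Slc18a3 RNA. Reads from unspliced Chat could be counted to Slc18a3; their amount was not tested. Slc5a7 lies apart from them on chromosome 17 from 54273590 to 54299034, and Ache on chromosome 5 from 137287519 to 137294466 on the plus strand.

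The upstream sequences of the nested pair and of Slc5a7 are shown because the 2 transporters had non-overlapping groups and Chat did not. They come from RefSeq (GRCm38.p6), which held a promoter for 4 of the 5 genes, and run 5′ to 3′ on the minus strand up to the annotated start. The Chat sequence stops 80 bases earlier, before the first base of any Chat transcript in GENCODE. Capitals mark matches on either strand to GCCNNNGGC, an AP-2 motif, and CANNTG, an E-box.
Slc18a3, chr14:32464851-32465100: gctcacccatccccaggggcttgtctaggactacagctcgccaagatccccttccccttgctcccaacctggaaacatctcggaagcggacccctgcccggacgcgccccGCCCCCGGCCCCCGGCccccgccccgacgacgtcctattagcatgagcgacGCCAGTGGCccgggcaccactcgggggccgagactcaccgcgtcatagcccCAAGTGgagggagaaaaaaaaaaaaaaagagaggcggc
Chat, chr14:32465990-32466159: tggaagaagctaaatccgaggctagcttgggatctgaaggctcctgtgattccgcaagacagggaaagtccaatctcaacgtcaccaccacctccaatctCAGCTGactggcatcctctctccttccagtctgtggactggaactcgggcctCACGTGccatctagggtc
Slc5a7, chr17:54299035-54299284: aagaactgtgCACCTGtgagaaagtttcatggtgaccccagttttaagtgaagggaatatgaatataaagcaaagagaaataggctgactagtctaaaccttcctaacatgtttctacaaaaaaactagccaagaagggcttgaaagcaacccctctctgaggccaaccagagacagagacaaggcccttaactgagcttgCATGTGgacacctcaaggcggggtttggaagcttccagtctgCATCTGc
The Slc18a3 window had 3 AP-2 matches, of which the first and second share 2 bases, and 1 E-box. The Chat window of 250 bases had 2 E-boxes and the Slc5a7 window 3, and neither had an AP-2 match. Over the 32851 RefSeq promoter windows of 250 bases, 13.7% held the AP-2 motif and 66.2% the E-box. CTAATG, the ISL1 core, and ATTGTT, a SOX core, were in none of the 3 windows nor in that of Ache, and in 6.36% and 9.42% of all windows. The GC content was 66% for the Slc18a3 sequence, 54.7% for Chat and 45.6% for Slc5a7. A match describes the letters only; binding was not measured.

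Ratios within a library do not depend on how that library was scaled, so the other 4 genes were also set against Chat. Slc18a3 was at 87.1%, 77.3% and 50.8% of the Chat level in CKO 1 to 3 and at 115%, 88.5% and 83.1% in WT 1 to 3. CKO 1 lay inside the WT range and the other CKO libraries below it. The log2 ratio differed by -0.435 between CKO and WT (exact permutation test, two-sided p = 0.2, and 0.6 adjusted over the 4 ratios), and by -0.204 without CKO 3. For Slc5a7 the ratio to Chat was 58.3%, 78.8% and 57.2% in CKO and 81.7%, 77.7% and 68.8% in WT, a log2 difference of -0.245 (exact permutation p = 0.3, adjusted 0.6). The ratio of Ache to Chat was the steadiest, at 640 to 680% in CKO and 638 to 673% in WT, with a log2 difference of -0.003 (exact permutation p = 1, adjusted 1). That of Megf10 to Chat differed by -0.027 (exact permutation p = 0.9, adjusted 1). With 3 against 3 libraries this test cannot go below 0.1, so it could not have passed 0.05 for any gene. The differences of the transporters from Chat were therefore not shown to exceed the spread between libraries.

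The 5 genes were also set against a list of pan-amacrine markers, whose own level was higher in CKO. The reference was the mean log2 FPKM of 15 pan-amacrine markers, which was 5.315 to 5.351 in CKO and 5.133 to 5.212 in WT, higher in CKO by 0.16. Relative to it the CKO libraries lay below the WT libraries for each of the 5 genes. The reference itself did not overlap between the groups, and the share of all tested genes that separate in this way was not computed. A gene with the same mean log2 level in both genotypes would be lower in CKO by 0.16 in this ratio. The separation is therefore not a result about the 5 genes alone. The gap was narrow for Chat (log2 ratio -2.529 in CKO 3, -2.521 in WT 1) and for Ache (0.148 in CKO 3, 0.153 in WT 1). The log2 differences were -0.656 for Slc18a3 and -0.465 for Slc5a7, and -0.247 for Megf10, -0.224 for Ache and -0.221 for Chat. Each had an exact permutation p of 0.1, the smallest this design can give, and 0.1 adjusted over the 5 ratios. The marker list was drawn up with the higher amacrine levels in CKO already known, and the 5 ratios share 1 denominator, so they are not separate evidence. The list itself was not uniform: 13 of its 15 tested genes had fold changes above 0, while Prdm13 (-0.27, limma adjusted p = 0.4273) and Barhl2 (-0.14, limma adjusted p = 0.7278), both named after their values were seen, lay below 0. Markers of other amacrine types shared the higher level in CKO only in part. For 7 of the 16 tested, every CKO library exceeded every WT library, against 6.96% of all tested genes. The reverse held for 0 of the 16. Their median log2 fold change was small, at 0.025: 11 were higher in CKO, 5 were lower and none passed the threshold. The 18 listed summed to 211 to 230 FPKM in CKO and 206 to 222 FPKM in WT, which overlap.

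**Figure D2:**
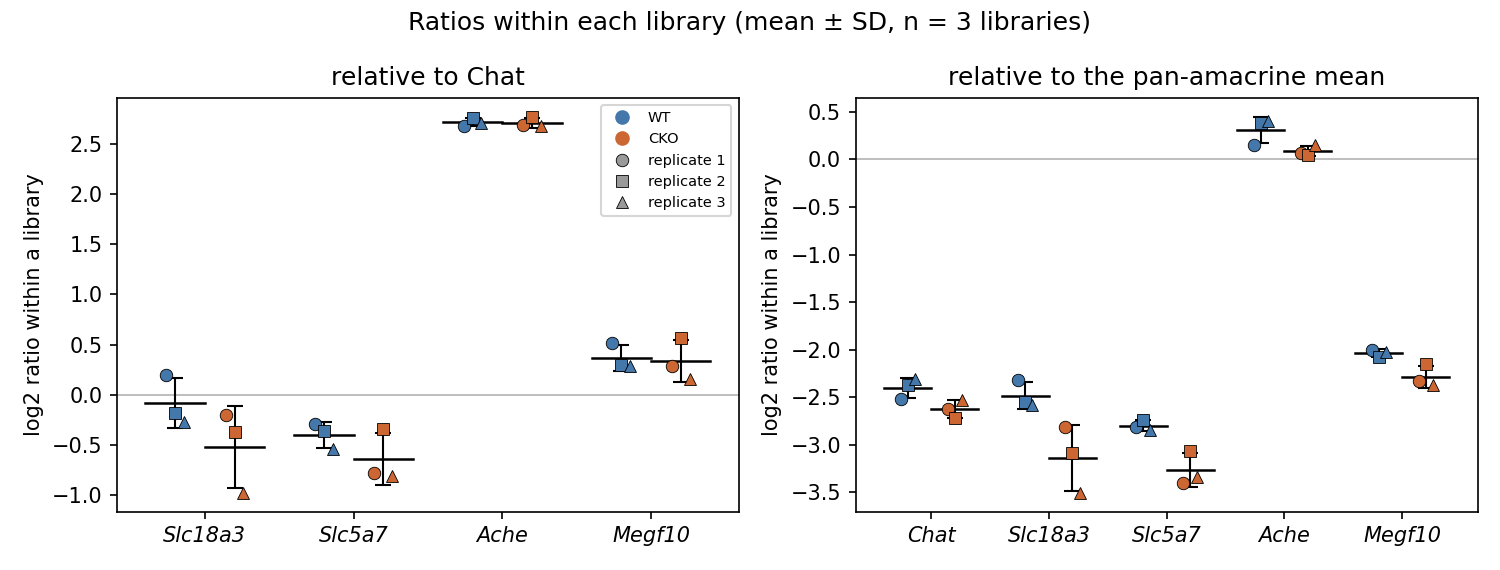
Log2 ratio within each library of the cholinergic genes to Chat (left) and to the mean log2 level of 15 pan-amacrine markers (right), in WT (blue) and CKO (orange), with mean and SD (n = 3). Ratios to Chat overlap between the groups, and ratios to the pan-amacrine mean are lower in CKO for all 5 genes. That mean was itself higher in CKO by 0.16, which lowers the ratio of any gene.

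Of the other genes of acetylcholine and choline handling, 2 of 8 tested had CKO libraries all below WT and 0 all above. Over all tested genes the shares were 6.95% and 6.96%. Of 12 listed genes 8 were tested; 2 had fold changes above 0 and 6 below 0 (median -0.053), and none passed the threshold. Slc10a4, a transporter-like protein of cholinergic and monoaminergic synaptic vesicles, was listed at 1.97, 2.44 and 2.05 FPKM in CKO 1 to 3 and at 2.94, 2.82 and 3.04 FPKM in WT 1 to 3. All CKO values were below all WT values, with a log2 fold change of -0.32 (95% confidence interval -0.57 to -0.08, unadjusted p = 0.01551, limma adjusted p = 0.5303). Slc44a5, a choline transporter-like gene near the filter of 1 FPKM, averaged 1.43 ± 0.157 in CKO against 1.68 ± 0.0521 FPKM in WT (SD, n = 3 per genotype). It was again without overlap (log2 fold change -0.14, unadjusted p = 0.2441, limma adjusted p = 0.797). Slc44a1, its broadly expressed relative, was at 23.5 against 25.4 FPKM with overlapping groups (-0.11, limma adjusted p = 0.8041). Prima1, which anchors acetylcholinesterase in neuronal membranes, was at 7.60 ± 1.995 against 6.44 ± 0.395 FPKM (0.18, limma adjusted p = 0.8144), and its log2 fold change was 0.0135 without CKO 2 and 0.3493 without CKO 1. Bche, the related butyrylcholinesterase, at 0.549 to 1.01 FPKM, and Colq, the anchor used at muscle endplates, at 0.0494 to 0.262 FPKM, were below the filter and were not tested.

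Starburst cells also make GABA, and the genes for that lay on the other side of 0. Of 15 further genes that mark starburst cells or are used by them, 14 were tested; 10 had fold changes above 0 and 4 below 0 (median 0.067), and none passed the threshold. In 3 of them CKO libraries were all above WT and in 3 all below, against 6.96% and 6.95% of all tested genes. Those above were Gad1 and Gad2, the GABA-synthesizing enzymes, and Slc32a1, the vesicular GABA transporter. Gad1 averaged 122.3 ± 1.53 in CKO against 109.5 ± 2.56 FPKM in WT (SD, n = 3 per genotype; log2 fold change 0.16, unadjusted p = 0.004269, limma adjusted p = 0.3954). Slc32a1 was listed at 47.3, 45.7 and 45.3 FPKM in CKO 1 to 3 and at 39.1, 43.2 and 38.5 FPKM in WT 1 to 3 (0.19, unadjusted p = 0.009119, limma adjusted p = 0.4796). Gad2 was at 15.9 against 13.6 FPKM (0.22, limma adjusted p = 0.467). These 3 genes are made by GABAergic amacrine cells at large and stood in the pan-amacrine list too. In that list 11 of 15 tested genes had CKO libraries all above WT, so the share of starburst cells in their level is not known from these data.

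**Figure D3:**
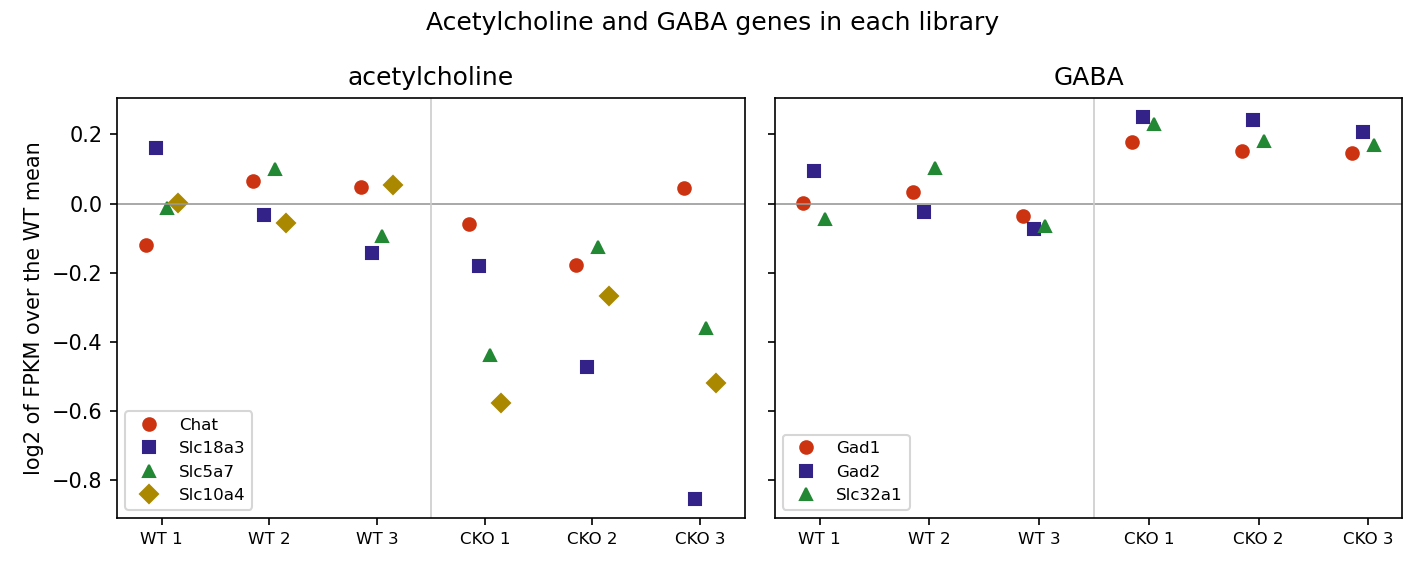
Log2 of FPKM over the WT mean in each library for acetylcholine genes (left: Chat, Slc18a3, Slc5a7, Slc10a4) and GABA genes (right: Gad1, Gad2, Slc32a1). In CKO libraries Slc18a3, Slc5a7 and Slc10a4 lie below 0 and the 3 GABA genes above 0, while Chat lies on both sides of it; no gene shown passed the threshold.

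The 3 genes of that list with CKO libraries all below WT were Calb2, Megf11 and Isl1. Calb2, the calcium buffer calretinin of several amacrine and ganglion cell types, averaged 286 ± 6.53 in CKO against 327 ± 13.6 FPKM in WT (SD, n = 3 per genotype), without overlap (log2 fold change -0.19, unadjusted p = 0.00376, limma adjusted p = 0.3879). Megf11, the relative of Megf10 made by starburst and horizontal cells, was at 8.24 against 9.84 FPKM, without overlap (-0.23, limma adjusted p = 0.5241). The transcription factors Isl1 and Sox2 were named after their values were seen. Isl1, also made by bipolar and ganglion cells, was at 64.5 against 70.8 FPKM without overlap (-0.13, limma adjusted p = 0.5914). Sox2, also made by Muller glia, was at 12.01 against 12.29 FPKM with overlapping groups (-0.03, limma adjusted p = 0.9618, and above 0 without CKO 2 or WT 1). The remaining tested genes of the list had overlapping groups and fold changes above 0. They were Sema6a (0.11), Grm2 (0.10), Kcnc2 (0.09), Zfhx3 (0.09), Rnd3 (0.05), Plxna2 (0.01) and Kcnc1 (0.01), with limma adjusted p of 0.7382 or more. Fezf1, a marker of starburst cells of the ganglion cell layer, was at 0.788 to 1.19 FPKM over the 6 libraries, below the filter.

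Receptors for acetylcholine showed no common direction either. Of 10 tested nicotinic subunits 6 had fold changes above 0 and 4 below 0 (median 0.038), and of 3 tested muscarinic receptors 2 were above 0 and 1 below, with none past the threshold. Chrna6, a nicotinic subunit of ganglion cells, was listed at 36.4, 38.2 and 38.8 FPKM in CKO 1 to 3 and at 46.7, 45.9 and 45.4 FPKM in WT 1 to 3, a gap wider than the spread in either group (log2 fold change -0.28, unadjusted p = 0.000325, limma adjusted p = 0.196). Most ganglion cell markers were lower in CKO too, with 7 of 9 tested below 0 and 2 above. In 6 of the 9 CKO libraries were all below WT and in 1 all above, against 6.95% and 6.96% of all tested genes. The 10 listed genes summed to 763 to 785 FPKM in CKO and 823 to 877 FPKM in WT. The part of ganglion cells in the Chrna6 value was not tested. Chrna2 was at 3.72 against 3.08 FPKM and Chrna3 at 6.49 against 5.71 FPKM, with CKO libraries above WT (0.21 and 0.16, limma adjusted p = 0.6981 and 0.7522). Chrna5 was at 3.84 against 4.73 FPKM with overlapping groups (-0.26, limma adjusted p = 0.7569), and its log2 fold change was -0.0818 without CKO 1. Among muscarinic receptors Chrm2 was at 3.75 against 3.20 FPKM without overlap (0.18, limma adjusted p = 0.7167), Chrm1 at 2.16 against 1.87 FPKM (0.14) and Chrm3 at 4.39 against 4.81 FPKM (-0.11).

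Proteins that tune or assemble nicotinic receptors lay mostly below 0, with 1 of 6 tested above and 5 below (median -0.119) and none past the threshold. Lynx1, a membrane-anchored brake on nicotinic receptors, averaged 73.9 ± 2.52 in CKO against 85.5 ± 5.11 FPKM in WT (SD, n = 3 per genotype), without overlap (log2 fold change -0.21, unadjusted p = 0.005711, limma adjusted p = 0.4182). Ly6e, of the same protein family, was at 23.8 against 27.3 FPKM, without overlap (-0.19, limma adjusted p = 0.6007). Ly6h was at 51.5 against 55.4 FPKM (-0.10), Lypd6 at 9.35 against 10.35 FPKM (-0.13), the chaperone Ric3 at 26.0 against 26.6 FPKM (-0.03) and Lypd6b at 3.87 against 3.53 FPKM (0.10), all with overlapping groups.

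**Figure D4:**
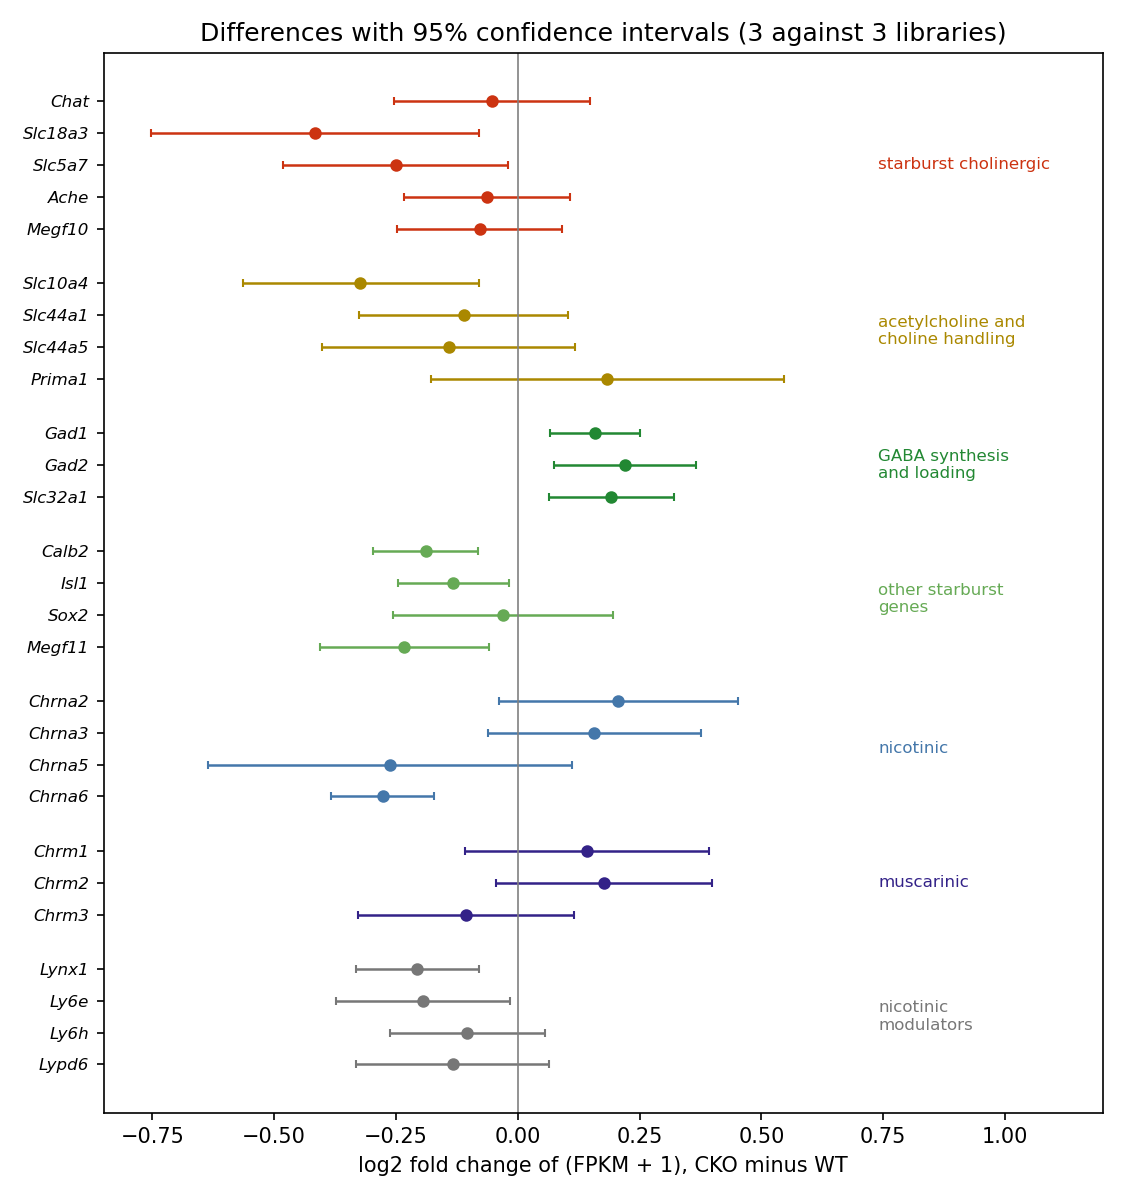
Log2 fold change of FPKM + 1 (CKO minus WT) with unadjusted 95% confidence intervals for the cholinergic genes and genes around them, 3 against 3 libraries. Intervals of Slc18a3, Slc5a7, Slc10a4, Calb2, Isl1, Megf11, Chrna6, Lynx1 and Ly6e lie below 0 and those of Gad1, Gad2 and Slc32a1 above 0. All other intervals shown, with those of Chat, Ache and Megf10, include 0. Apart from Gad1, Gad2 and Slc32a1, starburst genes above 0 are not drawn, and neither is Lypd6b (0.10).

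Markers of the direction-selective ganglion cells that receive starburst input were level between genotypes. Of 7 tested, 2 had fold changes above 0 and 5 below 0 (median -0.028), none passed the threshold and all had overlapping groups. Cartpt, a peptide precursor of ON-OFF direction-selective cells, was at 79.2 against 79.9 FPKM (-0.01), and Mmp17 at 8.58 against 7.76 FPKM (0.13). Col25a1 was at 5.09 against 5.22 FPKM (-0.03), Cdh6 at 5.70 against 5.87 FPKM (-0.04), Satb1 at 8.57 against 8.88 FPKM (-0.05), Fstl4 at 2.25 against 2.47 FPKM (-0.10) and Gabra2 at 22.5 against 21.5 FPKM (0.07). Among relatives of Megf10 and genes of engulfment, 2 of 7 tested were above 0 and 5 below (median -0.02), with Mfge8 turning above 0 under quantile normalization. Apart from Megf11, above, they were close between genotypes: Mertk at 3.64 against 3.87 FPKM, Axl at 5.86 against 5.68, Gulp1 at 13.5 against 13.5, Abca1 at 9.83 against 9.92, Gas6 at 77.8 against 82.1 and Mfge8 at 153.8 against 155.4 FPKM.

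Across the 6 libraries Chat and Ache went up and down together, while Chat and Slc18a3 did not. Pearson's r of log2(FPKM + 1) was 0.925 for Chat and Ache (exact permutation p = 0.024, 0.24 adjusted over the 10 pairs), and Spearman's rho was 0.943 (exact permutation p = 0.017, adjusted 0.17). Without CKO 2 and WT 1, the libraries farthest from the median Chat level, r was 0.939, and after the mean of each genotype was taken away it was 0.915. For Chat and Slc18a3, r was -0.124 (exact permutation p = 0.803, adjusted 0.906) and rho 0.2 (exact permutation p = 0.714, adjusted 0.793), and r was -0.114 without the same libraries and -0.61 after the genotype means were taken away. Slc5a7 and Megf10 had an r of 0.86 (exact permutation p = 0.053, adjusted 0.265) and a rho of 0.657 (exact permutation p = 0.175, adjusted 0.438), which rested on CKO 1 and CKO 3, since r was -0.051 without them; after the genotype means were taken away it was 0.804. No pair passed after adjustment, each genotype alone has only 3 libraries, and the genes share the scaling of each library.

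**Figure D5:**
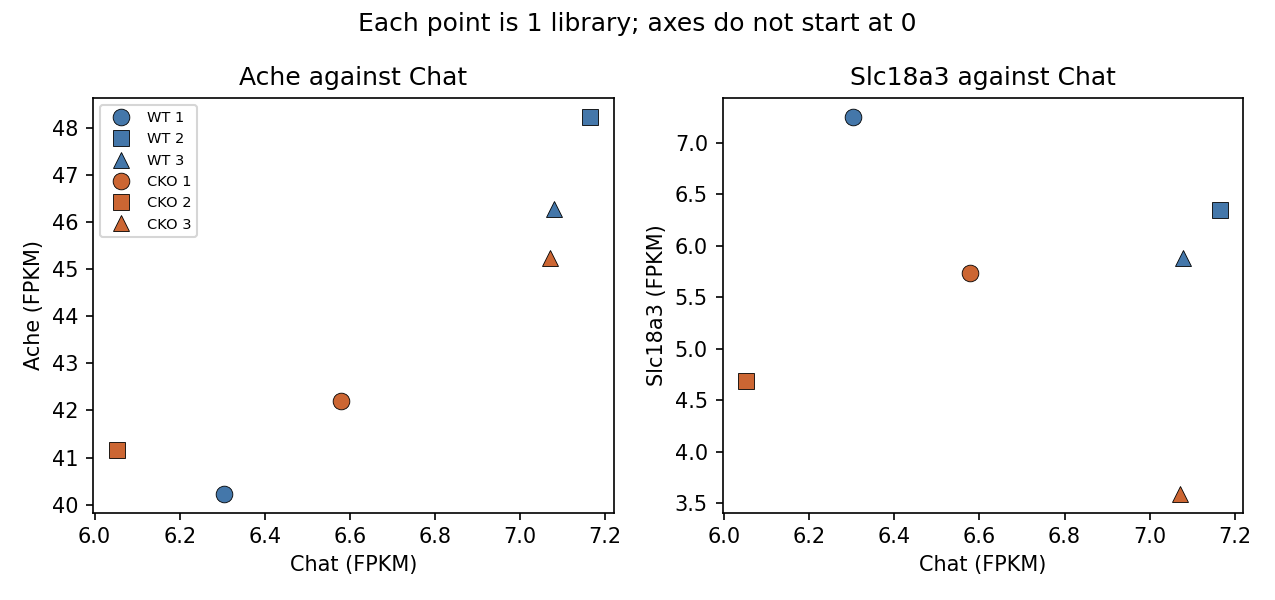
FPKM of Ache (left) and Slc18a3 (right) against FPKM of Chat, with 1 point per library (WT blue, CKO orange; axes do not start at 0). On the log2 scale r with Chat was 0.925 for Ache (exact permutation p = 0.24 adjusted over the 10 pairs) and -0.124 for Slc18a3. No pair passed after adjustment.

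The genes with the most similar profile over the 6 libraries were sought among 12334 tested genes, by Pearson's r of log2(FPKM + 1) and as a description. They were Dnm2 (r = 0.9897), Sema3f (0.972) and Mcm9 (0.9698) for Chat. For Slc18a3 they were Osbpl6 (0.9805), Ap4s1 (0.9789) and Rnaseh2c (0.9776). Maml2 (0.997), Ubxn4 (0.9919) and Ebpl (0.9805) were most like Slc5a7. Mpv17 (0.9926), Pitpnm2 (0.9911) and Itih5 (0.9872) were most like Ache, and Scfd1 (0.9841), Qpctl (0.978) and Shoc2 (0.9755) most like Megf10. No cholinergic gene was among the 3 nearest of another. Between 14 and 31 genes reached an r of 0.95 with each of the 5, or 0.114% to 0.251% of those compared.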

How the data were processed

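Retinal messenger RNA was sequenced in 3 Cyfip2 CKO and 3 WT samples, from TRIzol RNA with a TruSeq stranded kit, per the labels' protocols. The deposited values are FPKM per gene symbol, 1 file per sample; the unit was judged from the values and from Cufflinks 2.2.1, which the submitters' processing notes name with TopHat2 2.0.13, Bowtie2 2.3.5.1, SAMtools 1.11 and mm10. The sources used here give no annotation, parameters or strand setting. In WT 3, 27 symbols had become dates and were restored from the matching rows.

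Values were taken as log2(FPKM + 1). The 13215 genes averaging 1 FPKM or more entered a fit across all genes with limma 3.58.1 in R 4.3.3 (eBayes with trend, two-sided, Benjamini-Hochberg, threshold 0.05), after the fit was tested on simulated data. In simulations with 200 changed genes, at log2 changes of 0.25, 0.5, 1 and 2, it called 16% of those at 0.25 and 66.4% of those at 0.5. Many more genes passed there than in the data, where 2 higher and 1 lower did. The Benjamini-Hochberg cutoff was therefore looser in the simulations, and these shares are too high for the data. Changes of the size of those of Slc5a7 and Slc18a3 can therefore be missed. Fold changes on this scale understate those of low genes. Ratios were compared on log2(FPKM) with exact permutation tests (scipy 1.17.1). FPKM keeps no counts: absolute depth is unknown, and relative depth came from genes below 0.3 FPKM, where 78.1% to 82% of ratios to WT 1 lay within 0.02 (log2) of ratios of small whole numbers.

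The 5 genes, the lists and the tests were chosen with earlier results of these data known. Besides the 5 genes and Cyfip2, the rule for the lists around the 5 genes named all tested genes of lists of 8 or fewer. Of longer lists it named the 4 of smallest p, and for each of the 5 genes the 3 of highest r, predicted and small RNA genes left out. Cell type lists were given mainly by counts and sums. Other genes were named outside this rule, among them Isl1, Sox2, Prdm13, Barhl2, Bche, Colq, Fezf1 and the starburst genes from Sema6a to Kcnc1. Alternatives were other pseudocounts, filters, scalings, eBayes settings, sample weights, a replicate block and each library left out.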

Additional observations from a re-analysis of the deposited data

How the results depend on the processing

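The log2 fold changes of the 5 cholinergic genes stayed below 0, and their limma adjusted p above 0.05, in all 16 alternative fits (15 for Slc5a7, whose mean is under the stricter minimum of 5 FPKM). They ran from -0.5486 to -0.2724 for Slc18a3, -0.3252 to -0.1983 for Slc5a7, -0.1041 to -0.0032 for Chat, -0.1384 to -0.0103 for Ache and -0.128 to -0.043 for Megf10. The unadjusted p stayed under 0.05 in 14 of 16 fits for Slc18a3 (not without CKO 3 or WT 1) and in 10 of 15 for Slc5a7 (not with sample weights or without CKO 1, CKO 3, WT 1 or WT 2).

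Replicate numbers are shared by the genotypes, but same-numbered libraries deviated together only weakly (r = 0.072, 0.006 and 0.101), and CKO 2 was closest to WT 1, so the numbers were not taken as pairs. With a replicate block the log2 fold change of Slc18a3 was -0.4157 (limma adjusted p = 0.3584) and 1 gene was called higher over all genes. The block lowered the unadjusted limma p of Slc18a3 from 0.02168 to 0.004204. Over all genes, those with an unadjusted p under 0.05 rose from 465 to 539 higher and from 576 to 732 lower.

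The count of genes called higher, 2, was also 1 without the variance trend, and between 1 and 3 with a library left out. It was 3 without the filter, with quantile normalization, with robust eBayes and with sample weights. The count called lower, 1, was 0 without the filter, without the trend and with robust eBayes, and between 0 and 1 with a library left out. Cyfip2 lost its call in 3 of these fits (without the filter, 0.07396; without the trend, 0.1024; robust eBayes, 0.1109) and without CKO 1, CKO 2, CKO 3, WT 2 or WT 3 (0.0663 to 0.1973).

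With libraries left out, the ratio difference to Chat ran from -0.032 to 0.017 for Ache and from -0.14 to 0.062 for Megf10, while those of Slc18a3 (-0.594 to -0.204) and Slc5a7 (-0.394 to -0.163) and the 5 to the pan-amacrine mean stayed below 0 in every alternative. Barhl2, Sema6a, Grm2, Kcnc2, Zfhx3, Rnd3, Plxna2 and Kcnc1 were left out of the check that follows. Of the other genes named, the fold change changed sign only where it was near 0: Mfge8 with quantile normalization (0.0009), Cdh6 (0.0234) and Abca1 (0.0505) with sample weights. With libraries left out, the range crossed 0 for Lypd6b (-0.0446 to 0.2697), Ric3 (-0.0789 to 0.0125), Gabra2 (-0.0042 to 0.1505), Cdh6 (-0.129 to 0.0373), Col25a1 (-0.0927 to 0.0208), Cartpt (-0.0533 to 0.0337), Mertk (-0.1272 to 0.0314), Axl (-0.0592 to 0.1261), Mfge8 (-0.0708 to 0.0297), Abca1 (-0.1122 to 0.0842), Gulp1 (-0.0743 to 0.0523) and Sox2 (-0.0928 to 0.053). FPKM hold no counts, so counting error could not be set for any value.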
